A study of Mus musculus with 10 samples.

Results

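The small proline-rich (Sprr) and late cornified envelope (Lce) genes were followed in the skin of 5 mice of the genotype labelled Hamp1-KI ker (KI in what follows) and 5 wild type mice (WT), profiled by RNA sequencing with 1 library per mouse. Hamp encodes the iron hormone hepcidin, and its overexpression in skin is what the series is about. "ker" is not spelled out in the labels, which also give no age, sex, strain or body site, and no allele other than that one. Animal titles carry the prefix EAS37 (KI 1, KI 2, WT 1, WT 2 and WT 3) or EAS42 (KI 3, KI 4, KI 5, WT 4 and WT 5), whose meaning is not given. The members are all protein-coding genes of mouse chromosome 3 whose symbol starts with Sprr or Lce and a digit. There are 36 of them among the 55487 genes of the tables, 15 Sprr (2 Sprr1, 11 Sprr2, Sprr3 and Sprr4) and 21 Lce (14 Lce1, 6 Lce3 and Lce6a). They lie within chr3:92215799-93019060 of GRCm38, the Sprr genes first (chr3:92215799-92500493) and the Lce genes after them (chr3:92620081-93019060).

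The cornified envelope is the protein shell that replaces the plasma membrane of keratinocytes as they die at the skin surface. Transglutaminases build it by cross-linking precursors such as involucrin, loricrin, the Sprr proteins and the Lce proteins, whose genes sit side by side in the epidermal differentiation complex. Sprr proteins are known as flexible cross-bridges that are induced in stressed, wounded or inflamed epidermis, whereas many Lce genes are expressed late in the normal upper epidermis, and human LCE3 genes are known to be induced in wounded and psoriatic skin.

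Libraries held 18.96 to 26.43 M expected counts. Hamp stood between 411 and 872 TPM, a level scaled for transcript length and library size, in KI and between 10.3 and 18.4 TPM in WT libraries, so the genotype labels fit the gene that was changed. The keratinocyte keratins Krt5 and Krt14 were abundant in all 10 libraries, at 2111 TPM or more. Tissue make-up differed between the genotypes as well as in single libraries. The skeletal muscle list summed to 3717 to 37030 CPM, counts scaled to library size, in KI and 33988 to 59226 CPM in WT libraries, so the groups overlapped. Of its 20 measured members 3 fell, a share near the 15.3% of all tested genes that fell. The hair shaft level (mean log2 CPM of 13 genes) was highest in WT 2, at 8.12, and KI 2, at 6.09, and KI 2 also had the lowest muscle level. Of 8 genes of activated keratinocytes 7 rose, against 15.6% of all tested genes. Their sums were 4982 to 17482 CPM in KI and 1030 to 4542 CPM in WT libraries. Adipocyte levels (mean log2 CPM) were 5.22 to 6.20 in KI and 6.29 to 7.26 in WT libraries. Endothelium levels were 3.83 to 4.29 in KI and 4.57 to 5.07 in WT libraries. Neutrophil levels (2.09 to 3.92 in KI, -1.31 to -0.22 in WT) and T cell levels (2.85 to 3.13 in KI, 1.31 to 1.95 in WT) went the other way. The neutrophil level rests on 4 of 8 listed genes, since Ly6g, Mmp8, Retnlg and Stfa2l1 had too few counts. Of the genes used, S100a8 and S100a9 are also on the activated keratinocyte list, so this level is not particular to neutrophils. What part these tissue differences have in the results was not tested beyond the fits given beside them. In whole skin, fewer cells of a type and less RNA per cell cannot be told apart.

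The promoters of the families differ in sequence. RefSeq windows on GRCm38.p6, from 250 bases before to 50 bases after the annotated start, were at hand for 34 of the 36 members. The RefSeq start was the gene start of the annotation used for all other values in 26 of them, and outside Sprr2a1 to Sprr2a3 the others lay at most 85 bases away. The 5 shown are those of the most induced member and its paralog (Sprr1b, Sprr1a), of Sprr2h, and of the Lce1 members that rose most and that fell (Lce1g, Lce1m). Sprr1a and Sprr2h did not pass the test given below. Capitals mark matches on either strand to TGANTCA, the motif of AP-1, and TATAAA, the TATA box.
Sprr1b (chr3:92438730-92439029, minus strand): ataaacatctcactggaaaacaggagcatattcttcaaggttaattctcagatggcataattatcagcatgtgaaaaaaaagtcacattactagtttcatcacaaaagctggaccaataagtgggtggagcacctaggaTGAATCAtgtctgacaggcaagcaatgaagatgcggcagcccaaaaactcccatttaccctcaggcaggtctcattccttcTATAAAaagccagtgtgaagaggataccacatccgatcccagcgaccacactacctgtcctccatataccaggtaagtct
Sprr1a (chr3:92485832-92486131, minus strand): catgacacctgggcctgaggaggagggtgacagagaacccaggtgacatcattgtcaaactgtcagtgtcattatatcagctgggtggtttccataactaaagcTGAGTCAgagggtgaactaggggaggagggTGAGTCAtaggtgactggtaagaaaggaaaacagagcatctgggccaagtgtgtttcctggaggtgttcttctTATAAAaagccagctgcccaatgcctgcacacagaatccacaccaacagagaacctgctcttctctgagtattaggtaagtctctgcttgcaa
Sprr2h (chr3:92385435-92385734, plus strand): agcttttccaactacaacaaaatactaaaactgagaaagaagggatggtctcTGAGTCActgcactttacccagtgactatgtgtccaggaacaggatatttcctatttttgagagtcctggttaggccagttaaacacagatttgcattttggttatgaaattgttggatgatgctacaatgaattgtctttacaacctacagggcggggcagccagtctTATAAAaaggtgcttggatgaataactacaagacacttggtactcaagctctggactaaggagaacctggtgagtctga
Lce1g (chr3:92752289-92752588, minus strand): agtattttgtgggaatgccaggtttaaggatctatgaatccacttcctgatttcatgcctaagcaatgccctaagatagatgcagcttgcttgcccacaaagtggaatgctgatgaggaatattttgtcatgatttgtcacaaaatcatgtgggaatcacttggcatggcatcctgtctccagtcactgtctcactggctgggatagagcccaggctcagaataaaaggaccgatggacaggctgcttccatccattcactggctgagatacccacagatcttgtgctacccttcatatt
Lce1m (chr3:93019012-93019311, minus strand): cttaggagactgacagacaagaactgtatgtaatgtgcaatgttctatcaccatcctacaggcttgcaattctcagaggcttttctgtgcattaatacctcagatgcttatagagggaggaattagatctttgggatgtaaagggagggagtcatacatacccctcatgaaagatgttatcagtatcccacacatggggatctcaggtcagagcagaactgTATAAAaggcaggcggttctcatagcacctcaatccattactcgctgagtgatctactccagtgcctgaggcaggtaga

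Sprr1b has a single AP-1 motif match whose first base lies 111 bases before the start, and Sprr1a has a pair, at 146 and 116 bases. In Sprr2h the match lies 198 bases before the start. The AP-1 motif was found in 9 of 14 Sprr windows (7 of 10 Sprr2 windows and both Sprr1 windows), in 0 of 13 Lce1 and in 0 of 6 Lce3 windows, against 7.81% of all 32851 windows. TATAAA was found in 10 of 14 Sprr windows, in 2 of 13 Lce1 windows (Lce1d and Lce1m) and in 13.6% of all windows. Only these exact letters were counted, and not near variants such as the aataaa of the Lce1g window. A window without a match may therefore still hold a variant of the TATA box. Of the Sprr2 members with the AP-1 motif, Sprr2d rose, Sprr2h did not pass the test and the others were below the count filter. The window of Sprr4, which rose, has neither motif. Its annotated start falls on an ATG, the letters of a start codon, and its transcript has only 231 bases. This window may therefore not hold the Sprr4 promoter. Whether the motifs relate to the changes was not tested. The 3 Sprr2 windows with neither motif are those of Sprr2a1, Sprr2a2 and Sprr2a3, the tested Sprr2 members that rose most. Of these the first and the second are identical over all 300 bases. Their RefSeq starts lie 36 and 34727 bases downstream (Sprr2a1 and Sprr2a2) and 113 bases upstream (Sprr2a3) of the annotated gene starts, so a window placed on the other start would hold other sequence, and the counts for Sprr2 windows depend on this choice. TGANNNNGC, the core of the antioxidant response element, was found in 8 of 14 Sprr, 4 of 13 Lce1 and 6 of 6 Lce3 windows, against 41.3% of all. CACCC, read by Kruppel-like factors, was found in 15 of 34 member windows, against 57.5% of all. AACCNGTT, a Grainyhead-like motif, was found in 0 of 34, against 2.09% of all. Matches were counted whether or not they overlapped, and an AP-1 and a TGANNNNGC match overlap in Sprr1a. The Lce1m window had a median identity of 49.0% to the other Lce1 windows and that of Lce1l 49.3%, against 65.1% for Lce1g. Lce1 windows were 46.7% identical to Sprr windows in the median.

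KI skin held more transcripts of both families. Of the 36 members 19 rose and 1 fell, 5 did not pass the test and 11 were below the count filter (edgeR quasi-likelihood test on all 17321 genes that passed it, Benjamini-Hochberg adjusted p under 0.05). Of all tested genes 15.6% rose and 15.3% fell, and the median log2 fold change was -0.01. Of the 25 members tested, 7 had fewer than 5 WT libraries over the filter and entered through their KI values, Lce3f with no WT library over it. These 7 were Sprr1b, Sprr2a1, Sprr2a3, Sprr2d, Sprr4, Lce3c and Lce3f, all of them among the 19 that rose. TPM was higher in every KI library than in every WT library for 20 of the 36 members, 17 of them tested, against 7.63% of tested genes. Summed over members, libraries held 6527 to 9651 TPM in KI and 2489 to 4930 TPM in WT. Without WT 2 and KI 2 together 18 members rose, when 21.3% of all tested genes were called in either direction, against 30.9% with all libraries. The number was 14 once the skeletal muscle level was a covariate (2.59% of all genes called), 23 with the title prefix as a block (38.3%) and 24 with the hair shaft level as a covariate (38.5%).

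**Figure D1:**
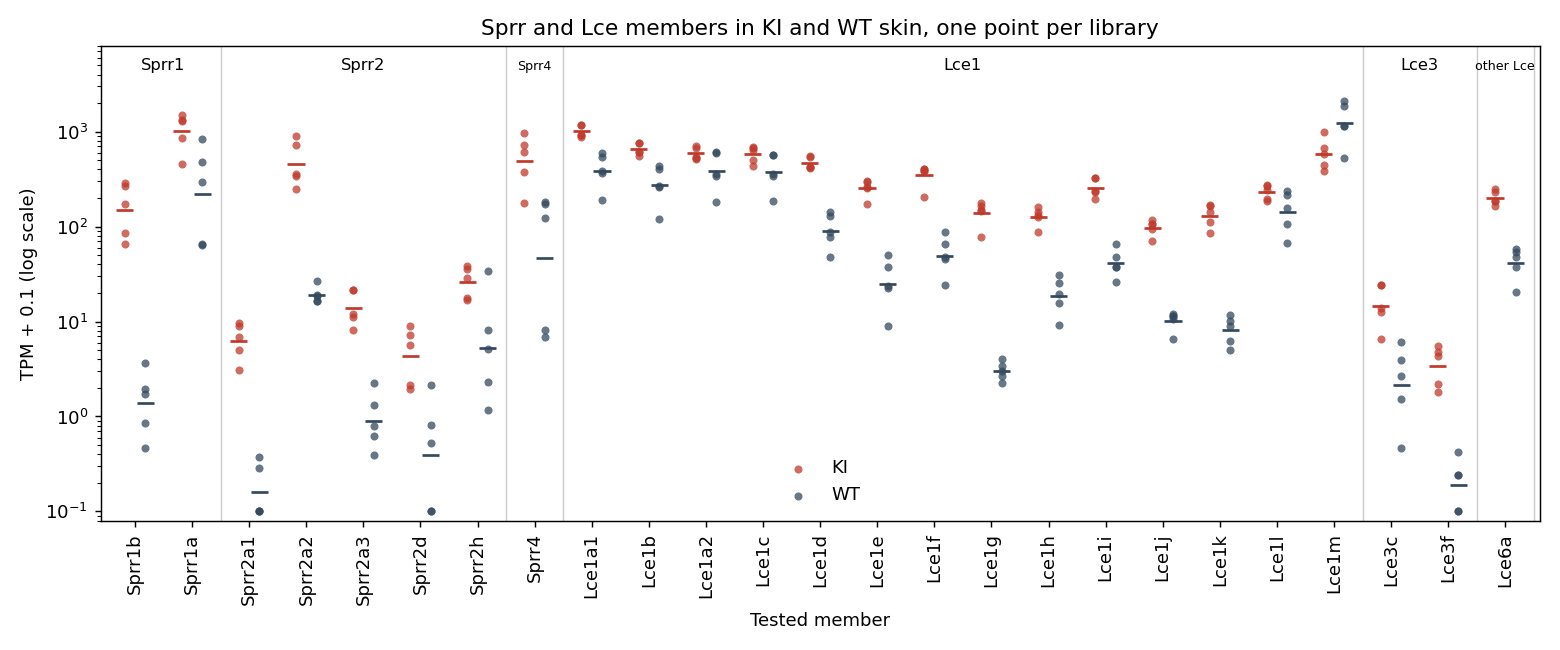
TPM of the 25 tested members on a log scale (0.1 added), one point per library, 5 KI libraries left of 5 WT libraries for each gene, lines at the mean of the log values. The groups lie far apart for Sprr1b (65.4 to 288 TPM in KI and 0.370 to 3.55 TPM in WT) and Lce1g, overlap for Sprr1a, and Lce1m alone has its KI points mostly below its WT points.

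Sprr1 genes encode envelope precursors with proline-rich repeats, and their 2 members differed. Sprr1b (chr3:92436809-92438789, minus strand) had 288, 269, 85.6, 175 and 65.4 TPM in KI 1 to KI 5, against 0.760, 3.55, 1.63, 1.84 and 0.370 TPM in WT 1 to WT 5. Every KI library was far above every WT library, and only 3 WT libraries were over the count filter. By edgeR the change was 6.90 ± 0.70 on the log2 scale (± SE, adjusted p = 3.95e-04). Sprr1a (chr3:92483952-92485895, minus strand), the paralog, had 1341, 1288, 862, 1502 and 457 TPM in KI 1 to KI 5, against 292, 840, 483, 64.0 and 65.2 TPM in WT 1 to WT 5. Its groups overlapped, since WT 2 and WT 3 lay above KI 5, and WT 4 and WT 5 were lower than the WT mice with the other prefix. The mean was 1090 ± 426 TPM in KI and 349 ± 326 TPM in WT (SD, n = 5 each), and the edgeR log2 fold change was 1.75 ± 0.72 (± SE, adjusted p = 0.0926). Sprr1a stood above Sprr1b in all 10 libraries. Sprr1b made up 13.4% ± 3.94 of summed Sprr1 TPM in KI and 0.875% ± 1.08 in WT libraries (SD, n = 5 each).

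Sprr2 genes encode a further group of envelope precursors and form a cluster of similar copies. Of the 11 members 4 rose, 1 did not pass and 6 were below the filter. Sprr2a2 (chr3:92215920-92256724, plus strand) carried most of the signal, at 904, 716, 250, 344 and 357 TPM in KI 1 to KI 5, against 16.4, 16.2, 26.6, 19.1 and 18.5 TPM in WT 1 to WT 5. KI 1 and KI 2 were the highest, and the groups did not overlap. By edgeR the change was 4.85 ± 0.44 on the log2 scale (± SE, adjusted p = 1.98e-04). Sprr2a3 (chr3:92285417-92291405) had 21.4, 21.2, 7.98, 11.2 and 11.8 TPM in KI 1 to KI 5, against 2.16, 0.290, 1.23, 0.690 and 0.530 TPM in WT 1 to WT 5, and rose by 4.31 ± 0.49 on the log2 scale. Sprr2a1 (chr3:92215799-92221911) had 8.87, 9.60, 3.01, 4.97 and 6.78 TPM in KI 1 to KI 5, against 0.190, 0, 0, 0.270 and 0 TPM in WT 1 to WT 5, and also rose (edgeR adjusted p = 9.76e-04). KI libraries stood above WT libraries for both.

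The split among the Sprr2a genes is uncertain, because 94.7% of the 75-base windows of Sprr2a2 transcripts occur unchanged in those of Sprr2a1, whose gene it overlaps. The sum of Sprr2a1, Sprr2a2 and Sprr2a3 depends less on the split, with a log2 ratio of means of 4.71 by TPM and 4.89 by CPM. Summed TPM was 934, 746, 261, 360 and 376 TPM in KI 1 to KI 5, against 18.8, 16.5, 27.9, 20.1 and 19.1 TPM in WT 1 to WT 5, a ratio of means of 26.2. KI 3 was the lowest KI library and still stood far above every WT library.

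Sprr2d and Sprr2h behaved less uniformly. Sprr2d (chr3:92339140-92340873) had 7.20, 8.81, 2.03, 5.55 and 1.87 TPM in KI 1 to KI 5, against 2.07, 0.420, 0, 0 and 0.720 TPM in WT 1 to WT 5. It rose (log2 fold change 3.15 ± 0.87, SE; edgeR adjusted p = 0.0213), but WT 1 lay above KI 3 and KI 5. The call was lost at log2 fold changes of 3.51 with EAS37 alone (edgeR adjusted p = 0.0543), 3.17 with EAS42 alone (0.0902) and 2.78 without WT 2 and KI 2 together (0.0747). With covariates it was lost at 2.93 (Krt1 and Krt10 level, 0.176), 1.79 (muscle level, 0.404) and 2.54 (prefix plus muscle level, 0.279). Sprr2h (chr3:92385685-92387324) had 35.8, 38.8, 17.6, 28.6 and 16.8 TPM in KI 1 to KI 5, against 5.04, 34.0, 8.11, 2.18 and 1.06 TPM in WT 1 to WT 5. WT 2 alone reached the KI range. Its change by edgeR was 1.60 ± 0.83 on the log2 scale (± SE, adjusted p = 0.167), and without WT 2 it was 2.96 (edgeR adjusted p = 0.00907).

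The 6 Sprr2 members below the filter each had more counts in KI. Ratios of total counts, scaled to depth, with exact 95% intervals that cover counting error only, were 16.2 for Sprr2b (4.10 to 140; 30 counts in KI and 2 in WT) and 11.3 for Sprr2k (2.77 to 99.6; 21 and 2). They were 7.19 for Sprr2i (2.13 to 37.8; 20 and 3), 6.79 for Sprr2e (3.46 to 14.8; 63 counts in KI and 10 in WT, all of the 10 in WT 1) and 3.95 for Sprr2f (1.04 to 22.1; 11 and 3). Sprr2j-ps, annotated as protein coding despite its name, had 11 counts in KI and 0 in WT. Its ratio was 3.95 with the WT group set to a floor of 3 counts, without allowance for counting error in KI.

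Sprr3, a member abundant in the lining of the mouth and oesophagus, was near absent, with 2 counts in KI and 4 in WT and a ratio of 0.539 (0.0487 to 3.76). Sprr4 (chr3:92500263-92500493, minus strand), whose human counterpart is known to respond to ultraviolet light, had 719, 613, 378, 972 and 177 TPM in KI 1 to KI 5, against 124, 173, 182, 8.10 and 6.75 TPM in WT 1 to WT 5. WT 3 lay just above KI 5, and WT 4 and WT 5 were far below the other WT libraries. It rose, and the edgeR log2 fold change was 2.71 ± 0.88 (± SE, adjusted p = 0.0442). The call was lost without any 1 of KI 1 to KI 4, WT 1, WT 3, WT 4 or WT 5 (log2 fold changes of 2.41 to 3.06, adjusted p between 0.0536 and 0.0865), without WT 2 and KI 2 together (2.99; 0.0687), with no filter (2.70; 0.102) and with length offsets (2.64; 0.0518). With covariates it was lost at larger log2 fold changes of 4.47 (Krt1 and Krt10 level, 0.0857) and 3.90 (prefix plus muscle level, 0.186) and at a smaller one of 1.93 (muscle level, 0.450). Its annotated transcript has 231 bases, of which 74.2 count as effective length, so its TPM is uncertain as a level. It had 3674 counts in KI and 584 in WT.

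WT levels of Sprr1a, Sprr4 and Sprr2h followed the title prefix and were higher with EAS37. Those of every Lce1 gene, Lce6a and Lce3c split by prefix too, but were higher with EAS42. Summed Lce1 was 1399 to 2893 TPM in WT 1 to WT 3 and 4738 to 4771 TPM in WT 4 and WT 5. Sprr1a averaged 538 TPM in the 3 WT libraries with EAS37 and 64.6 TPM in the 2 with EAS42, and Sprr4 averaged 160 and 7.43 TPM. The log2 fold change of Sprr1a was 1.49 with EAS37 and 3.86 with EAS42 (edgeR adjusted p = 0.0777 and 0.0137), that of Sprr4 2.33 and 6.15, and that of Sprr2h 1.44 and 4.13. The difference between prefixes did not pass for any of them (edgeR adjusted p = 0.211, 0.152 and 0.296). With the prefix as a block Sprr1a rose by 2.66 (edgeR adjusted p = 0.0111) and Sprr2h passed as well (0.0237). Hair shaft levels split by prefix as well, at 3.03 to 8.12 in EAS37 and -1.53 to 0.10 in EAS42 libraries. With hair shaft level as a covariate, Sprr1a rose by 2.79 on the log2 scale (edgeR adjusted p = 0.0065) and Sprr2h by 2.94 (0.00365). Sprr1a also passed without WT 2 (0.0335), by DESeq2 (0.0264) and by limma-voom (0.0365), and Sprr2h by limma-voom (0.0170).

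**Figure D2:**
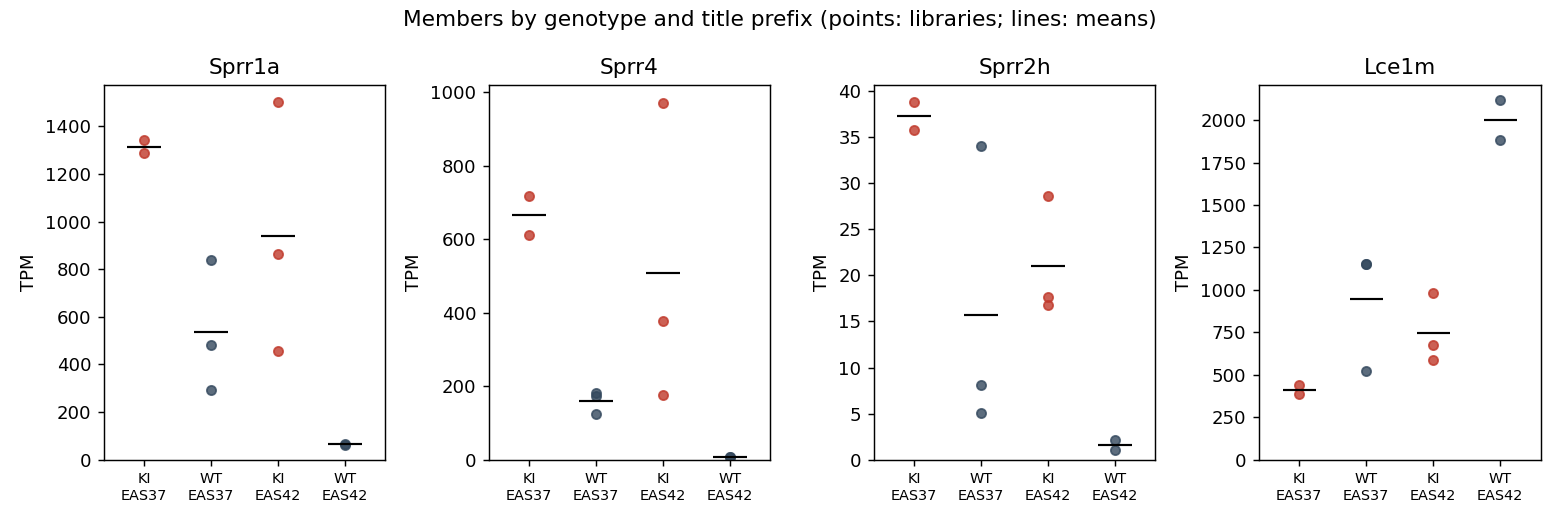
TPM of Sprr1a, Sprr4, Sprr2h and Lce1m by genotype and title prefix, one point per library, lines at the means (EAS37: 2 KI and 3 WT; EAS42: 3 KI and 2 WT). WT libraries with EAS42 were the lowest for Sprr1a (64.0 and 65.2 TPM) and Sprr4, and the highest for Lce1m (2120 and 1884 TPM).

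Lce1 genes, envelope precursors of the late stages of cornification, gave the broadest set. All 14 passed the filter, each with 5 WT libraries over it. Of these, 10 rose, 1 fell and 3 did not pass, and the median change was 2.53 on the log2 scale. Lce1g (chr3:92750148-92752338, minus strand) changed most, with 163, 147, 150.5, 179 and 78.2 TPM in KI 1 to KI 5, against 2.16, 2.54, 2.92, 3.30 and 3.94 TPM in WT 1 to WT 5. Even KI 5, the lowest KI library, stood well above every WT library, and the edgeR change was 5.69 ± 0.29 on the log2 scale (± SE, adjusted p = 5.68e-06). Lce1k (chr3:92806291-92807891) had 141, 111, 163, 168 and 85.4 TPM in KI 1 to KI 5, against 6.19, 4.89, 8.93, 10.1 and 11.6 TPM in WT 1 to WT 5. Lce1j (chr3:92788840-92790514) had 106, 94.5, 107, 117 and 71.2 TPM in KI 1 to KI 5, against 11.3, 6.39, 10.5, 11.4 and 11.8 TPM in WT 1 to WT 5. Neither overlapped between the groups, and edgeR gave Lce1k 4.09 ± 0.29 and Lce1j 3.36 ± 0.20 on the log2 scale (± SE, adjusted p = 3.98e-05 and 7.29e-06).

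The 8 neighbours from Lce1d to Lce1k rose together, by 2.37 to 5.69 on the log2 scale, and each was higher in every KI library than in every WT library. This stretch was singled out after its values were seen. At one side of it, Lce1a1 (chr3:92646535-92648307), the Lce1 gene with the highest KI mean, had 880, 914, 1189, 1172 and 926 TPM in KI 1 to KI 5, against 382, 190, 368, 545 and 596 TPM in WT 1 to WT 5. Its rise was smaller (1.37 ± 0.26 on the log2 scale; edgeR adjusted p = 0.00461), as was that of Lce1b (1.24 ± 0.29; 0.0112), without overlap in either. Both calls were lost once muscle level was a covariate, at log2 fold changes no smaller than these (1.49 for Lce1a1, edgeR adjusted p = 0.0711, and 1.39 for Lce1b, 0.116). They were also lost with prefix plus muscle level (1.01, 0.115, and 0.91, 0.214). That of Lce1b was lost with the Krt1 and Krt10 level too (0.83; 0.0520), and that of Lce1f with prefix plus muscle level (2.39; 0.0511). Lce1a2 (chr3:92668613-92670315) had 526, 518, 708, 681 and 540 TPM in KI 1 to KI 5, against 339, 183, 355, 596 and 611 TPM in WT 1 to WT 5, and did not pass (0.60 ± 0.29; edgeR adjusted p = 0.138). WT 4 and WT 5 lay within the KI range for it. It passed with EAS37 alone (1.08; edgeR adjusted p = 0.0433) and with hair shaft level as a covariate (0.55; 0.0472). The log2 fold changes of Lce1c (0.62 ± 0.27) and Lce1l (0.66 ± 0.30) did not pass either, at edgeR adjusted p = 0.103 and 0.118. Both passed with the prefix as a block (0.56, edgeR adjusted p = 0.0297, for Lce1c and 0.61, 0.0480, for Lce1l) and with hair shaft level as a covariate (0.54, 0.0140, and 0.59, 0.0219).

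Lce1m (chr3:93017810-93019060, minus strand), the last member along the chromosome and the most abundant Lce1 gene of WT skin, went the other way. It had 385, 441, 673, 587 and 981 TPM in KI 1 to KI 5, against 1155, 524, 1154, 2120 and 1884 TPM in WT 1 to WT 5. WT 2 lay within the KI range and the other WT libraries stood above all KI libraries. The mean was 613 ± 235 TPM in KI and 1367 ± 639.5 TPM in WT (SD, n = 5 each), and the edgeR log2 fold change was -1.09 ± 0.36 (± SE, adjusted p = 0.0412). The call was lost without any 1 of KI 1 to KI 4, WT 1, WT 3, WT 4 or WT 5 (log2 fold changes of -1.16 to -0.87, adjusted p between 0.0570 and 0.0989), with EAS37 alone (-0.96; 0.119), with no filter (-1.10; 0.111) and under limma-voom (-0.98; 0.0523). With covariates it was lost at -0.70 (muscle level, 0.482) and -1.45 (prefix plus muscle level, 0.0693). None of the transcript windows of Lce1m occurs in another gene, whereas between 0.936% and 13.5% of those of the other Lce1 genes do.

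**Figure D3:**
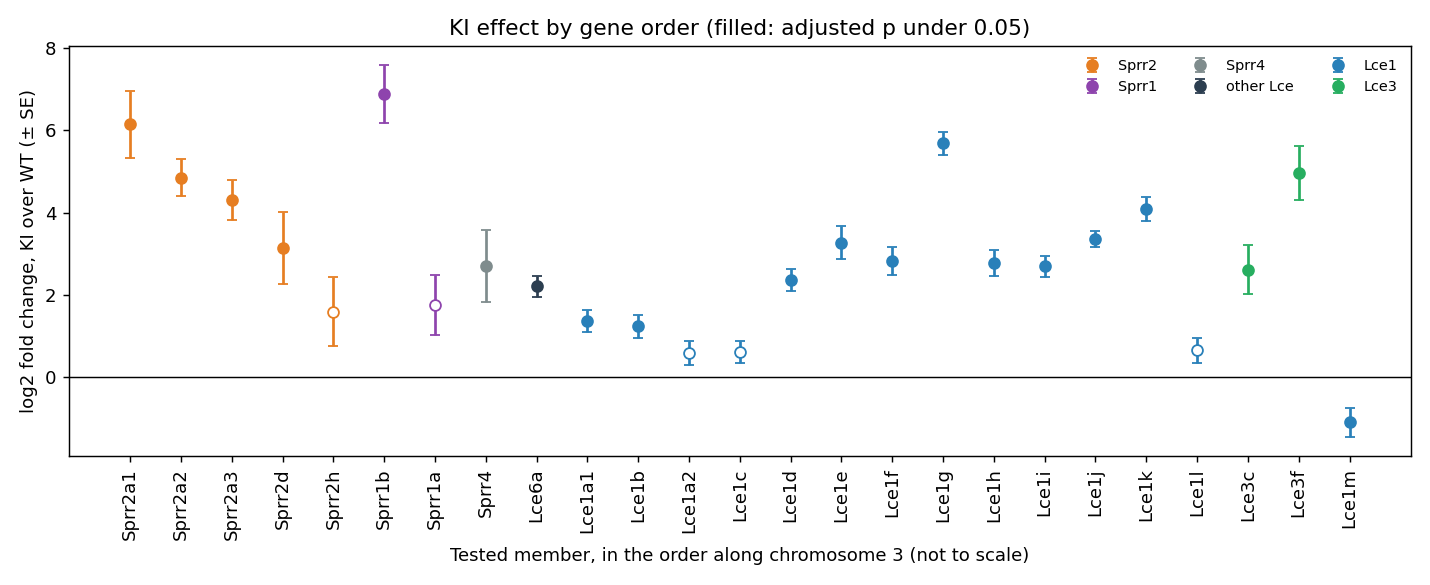
Log2 fold change of KI over WT with its standard error for the 25 tested members in their order along the chromosome, from edgeR; filled symbols passed at an adjusted p under 0.05. Sprr1b (6.90) and Lce1g (5.69) are the highest of their families, the genes from Lce1d to Lce1k form a raised run, and Lce1m (-1.09) lies below 0.

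The make-up of Lce1 transcripts differed between the groups in every library. Lce1m made up 7.90% to 18.7% of summed Lce1 TPM in KI and 37.4% to 44.4% in WT libraries. Lce1d to Lce1k together made up 25.1% to 38.1% in KI and 6.89% to 9.24% in WT libraries. These 8 were grouped, and Lce1m set apart, after their changes were seen. The direction of both share differences therefore follows from that choice, and only their size is described. The summed Lce1 TPM changed less, at 4876 to 6425 TPM in KI and 1399 to 4771 TPM in WT libraries, a ratio of means of 1.67. Member means ranged from 98.9 to 1016 TPM in KI and from 2.97 to 1367 TPM in WT, a span of 10.3-fold in KI and 460-fold in WT. The 8 members with the lowest WT means were the 8 from Lce1d to Lce1k. The order of the 14 members by level was similar in both groups (Spearman rho = 0.868 across genes, a description over members that share all 10 libraries).

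**Figure D4:**
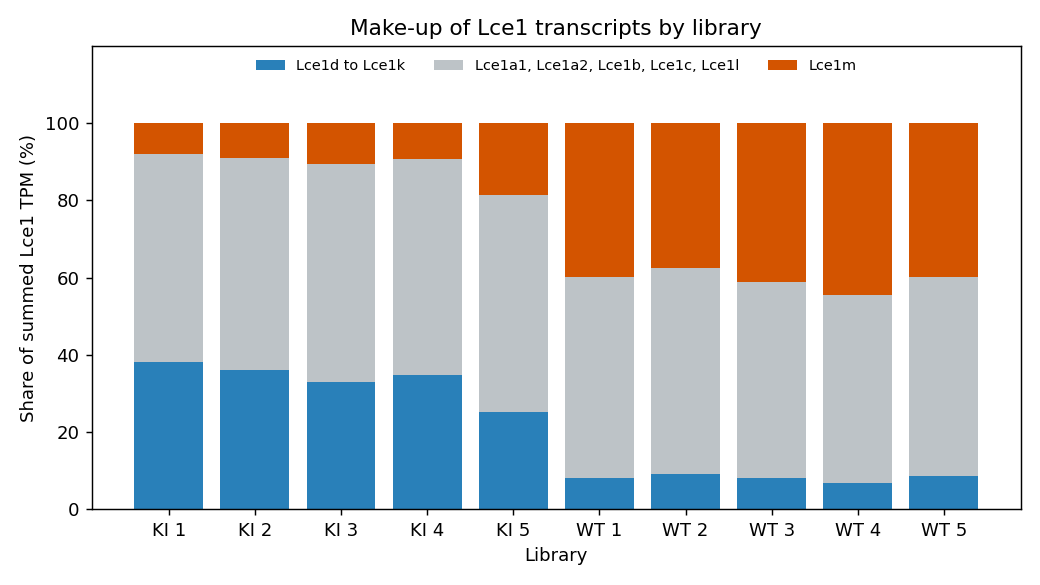
Share of summed Lce1 TPM in percent taken by Lce1d to Lce1k, by Lce1a1, Lce1a2, Lce1b, Lce1c and Lce1l, and by Lce1m, one bar per library, 5 KI bars left of 5 WT bars. The Lce1m share is 7.90% to 18.7% in KI bars, highest in KI 5, and 37.4% or more in every WT bar. The sets were formed after the values were seen.

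Lce3 genes were low throughout, and all 6 had more counts in KI. Lce3c (chr3:92944486-92945733) had 24.4, 23.9, 12.4, 13.7 and 6.48 TPM in KI 1 to KI 5, against 1.41, 0.360, 2.56, 3.83 and 6.01 TPM in WT 1 to WT 5. The groups were separate by a narrow margin between KI 5 and WT 5. Its change by edgeR was 2.62 ± 0.60 on the log2 scale (± SE, adjusted p = 0.00973). It was 4.22 with EAS37 and 1.16 with EAS42 (edgeR adjusted p of the difference 0.0748), and the call ended with EAS42 alone (edgeR adjusted p = 0.106) or with the covariates muscle level (1.997; 0.212) or prefix plus muscle level (1.78; 0.278). Lce3f (chr3:92992226-92993426) had 4.66, 5.45, 2.08, 4.24 and 1.69 TPM in KI 1 to KI 5, against 0.140, 0.320, 0, 0 and 0.140 TPM in WT 1 to WT 5, with no overlap. Its change by edgeR was 4.97 ± 0.67 on the log2 scale (± SE, adjusted p = 8.23e-04).

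Of the Lce3 genes below the filter, Lce3d had 104 counts in KI and 2 in WT, a ratio of 56.0 (15.1 to 469), and Lce3e 101 and 2, a ratio of 54.4 (14.7 to 456). Lce3b had 17 counts in KI and 1 in WT, a ratio of 18.3 (2.87 to 766), and Lce3a 10 and 3, a ratio of 3.59 (0.925 to 20.3). Lce3c to Lce3f share 28.0% to 45.6% of their transcript windows with other genes, so their split is uncertain. The sum over all 6 was 10.5 to 42.1 TPM in KI and 1.22 to 6.15 TPM in WT libraries. Lce3 thus took 0.193% to 0.820% of summed Lce TPM in KI and 0.0639% to 0.128% in WT libraries.

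Lce6a (chr3:92620081-92621660, minus strand), the remaining Lce member, had 188, 188, 230, 249 and 165 TPM in KI 1 to KI 5, against 47.9, 20.3, 37.5, 58.2 and 54.1 TPM in WT 1 to WT 5. All KI libraries stood above all WT libraries. It rose by 2.21 ± 0.25 on the log2 scale (SE; edgeR adjusted p = 4.27e-04).

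Summed TPM set the subfamilies side by side. The ratio of the KI mean to the WT mean was 18.04 for Sprr2, 8.43 for Lce3, 5.79 for Sprr4, 4.68 for Lce6a, 3.61 for Sprr1 and 1.67 for Lce1, and 2.53 for Lce1 without Lce1m. Groups did not overlap for Sprr2, Lce3, Lce6a and Lce1, and overlapped for Sprr1 and Sprr4. For Lce1 the margin was narrow, between 4876 TPM in KI 1 and 4771 TPM in WT 4. Lce1 libraries with EAS37 held 4876 to 4903 TPM in KI and 1399 to 2893 TPM in WT. Those with EAS42 lay closer, at 5257 to 6425 TPM in KI and 4738 to 4771 TPM in WT. All Sprr together ranged from 1095 to 3331 TPM in KI and from 93.6 to 1068 TPM in WT libraries. All Lce together ranged from 5103 to 6672 TPM in KI and from 1421 to 4834 TPM in WT libraries.

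No member passed the test of a different KI effect between the prefixes (0 of 25 by edgeR, with 9 at an unadjusted p under 0.05). Among all tested genes 0.866% passed, and 17.7% had an unadjusted p under 0.05. For 22 of the 25 tested members the log2 fold change was higher, or less negative, with EAS37 than with EAS42. They include 14 of 14 Lce1 genes, which share the same libraries. Other envelope genes did so too, such as Flg (3.89 and 2.64), Casp14 (3.48 and 2.49) and Lor (0.62 and -0.47), but Cst6 (2.01 and 2.79) did not. The share among all tested genes was not counted. The level of the suprabasal keratins Krt1 and Krt10, which mark the spinous layer, also differed by prefix, at 11.48 to 11.63 in KI and 9.54 to 10.39 in WT libraries with EAS37 (mean log2 CPM), and at 10.73 to 11.30 in KI and 11.04 to 11.24 in WT libraries with EAS42. With that level as a covariate 16 members rose, when 14.9% of all tested genes were called in either direction.

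Other genes of the envelope moved in part. Of 28 tested genes of a list of other precursors, cross-linkers and envelope-linked genes, 9 rose, 1 fell and 18 did not pass, and the median change was 0.35 on the log2 scale. Once muscle level was a covariate 2 rose and 0 fell, and with prefix plus muscle level 3 rose and 0 fell. Over all tested genes the share called was 2.59% and 4.47% in those fits, against 30.9% as reported. With the Krt1 and Krt10 level 5 rose and 1 fell (14.9% of all genes called). With EAS42 alone 4 rose and 4 fell (13.9%), and with EAS37 alone 16 rose and 1 fell (28.4%). The number that fell was 2 by DESeq2 and with the prefix as a block, and 3 with hair shaft level, without WT 2, and without WT 2 and KI 2 together. Loricrin (Lor), the main envelope protein, averaged 1483 ± 104 TPM in KI and 1478 ± 676 TPM in WT (SD, n = 5 each; edgeR adjusted p = 0.852). Involucrin (Ivl), an early scaffold of the envelope, averaged 106 ± 23.0 TPM in KI and 59.6 ± 19.2 TPM in WT and rose (log2 fold change 0.91; edgeR adjusted p = 0.0188). Filaggrin (Flg), which packs keratin filaments, averaged 503 ± 118 TPM in KI and 54.4 ± 24.8 TPM in WT, and its processing protease Casp14 296 ± 50.2 TPM in KI and 39.2 ± 13.0 TPM in WT. The antimicrobial peptidoglycan receptor Pglyrp3 (log2 fold change 1.94) and the calcium-binding Calm4 (1.69) rose as well. The gene that fell was the transglutaminase Tgm3 (-1.93), named here outside the naming rule.

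Among 25 regulators known to act on envelope genes 8 rose, 3 fell and 14 did not pass, and the median change was 0.18. Of all tested genes 15.6% rose and 15.3% fell. The 3 regulators that fell were Satb1 (-0.89), Gata3 (-0.48) and Arnt (-0.21), named here outside the naming rule. The interleukin-responsive factor Cebpb averaged 153 ± 14.8 TPM in KI and 72.4 ± 9.82 TPM in WT (SD, n = 5 each; log2 fold change 1.18; edgeR adjusted p = 3.14e-04). The epithelial ETS factor Elf3 averaged 3.34 ± 0.450 TPM in KI and 0.480 ± 0.133 TPM in WT (2.69; 6.25e-04). The AP-1 subunit Fosl1 averaged 3.31 ± 1.40 TPM in KI and 0.938 ± 0.922 TPM in WT (2.92; 0.00355), and Cebpa 144 ± 10.2 TPM in KI and 112 ± 14.5 TPM in WT (0.46; 0.00571). Of the other AP-1 subunits on the list, also outside the naming rule, Junb rose (0.88). Fos (-0.45), Fosb (-1.72), Fosl2 (0.07), Jun (-0.07) and Jund (-0.18) did not pass. Once muscle level was a covariate 2 regulators rose and 0 fell by edgeR (2.59% of all genes called), and with prefix plus muscle level 3 rose and 0 fell (4.47%). With the Krt1 and Krt10 level 4 rose and 2 fell (14.9%). With EAS42 alone (13.9%) or without WT 3 (24.4%), 5 rose and 1 fell, and 1 also fell without any 1 of KI 1, KI 2, KI 4, WT 1, WT 4 or WT 5.

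Genes outside both families with the pattern most like that of Sprr1b, by Pearson's r of log2 CPM over the 10 libraries, were Stfa1 (0.993), Glrx (0.988), Lrrc4 (0.987), Igfl3 (0.987), Slc26a9 (0.984) and Prss27 (0.984). Those most like Lce1m, the Lce1 gene of highest mean TPM, were Ptn (0.986), Scml2 (0.980), Prkag2 (0.980), Skint10 (0.980), Entpd2 (0.976) and Pxylp1 (0.975). Those like Sprr1b all rose, and of those like Lce1m Ptn and Scml2 fell. Such changes follow from picking genes by likeness to Sprr1b and Lce1m, which themselves differed between the groups. Stfa1 is also on the list of activated keratinocyte genes. The r describes likeness over these 10 libraries, which share the 2 genotypes.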

How the data were processed

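RNA from mouse skin was extracted with trizol and made into stranded mRNA libraries, per the labels' protocols. The deposited files are RSEM gene tables, per the file headers. The submitters' processing notes list the genome build GRCm38 and, without saying what each did, DESeq2 1.14.1, STAR 2.5.2b, featureCounts, Picard 2.8.1 and FastQC. Not given in the sources used here are the version of RSEM, its annotation and its strand setting. RSEM shares reads among similar copies by estimate.

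Expected counts deposited by the authors (10.4% to 12.2% of values fractional) were rounded to whole numbers. Levels are the deposited TPM. The authors also deposited FPKM, left unused here, and effective lengths, which entered 1 alternative. Names and coordinates came from GENCODE M21 on GRCm38, which matched 55141 of 55487 identifiers (the others held 0.0507% of counts). Replicate numbers follow accession order and pair nothing. Nothing says how the mice relate, so p-values measure the spread between these samples. The lowest chi-square per gene between any 2 libraries was 29.5, so none agreed within sampling noise.

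Genes were filtered by filterByExpr (minimum count 10, minimum total 15), which removed 0.127% of counts, and KI was compared with WT by edgeR 4.0.16 (R 4.3.3; TMM, robust quasi-likelihood) across all genes. DESeq2 1.42.0 and limma 3.58.1 were alternatives. SE is the log2 fold change over the root of the F statistic. Log2 CPM used a prior count of 2. The tests were tried on simulated counts. Intervals cover counting error only. The members and lists were chosen with earlier results of these data known. Members named with all libraries were every one of small subfamilies, and otherwise the 3 largest, the 2 smallest fold changes and the 2 highest levels. Of the lists, the 4 smallest p were named, with Lor and Ivl.

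Marker lists whose calls are not given in the results were as follows, as members that rose and fell of those tested: basal keratinocyte 1 and 3 of 6, suprabasal keratinocyte 2 and 0 of 6, hair shaft 0 and 0 of 13, sebaceous gland 3 and 0 of 8, adipocyte 0 and 6 of 8, fibroblast 0 and 3 of 6, endothelium 0 and 5 of 5, melanocyte 0 and 0 of 5, neutrophil 4 and 0 of 4, and T cell 5 and 0 of 6. Of all tested genes 15.6% rose and 15.3% fell. Ly6g, a neutrophil marker, had 0 counts.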

Additional observations from a re-analysis of the deposited data

Results flagged for a closer look

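In 58 groups of 5 libraries (the tested members and 4 subfamily sums, KI and WT), 4 had a library set apart from the rest by Dixon's 95% criterion, which chance meets in about 1 of 20 groups. Lce1f stood at 205 TPM in KI 5, against 385 to 405 TPM in the other KI libraries. Sprr2h stood at 34.0 TPM in WT 2, against 1.06 to 8.11 TPM in the other WT libraries. Sprr2a2 stood at 26.6 TPM in WT 3, against 16.2 to 19.1 TPM in the other WT libraries. Lce1j stood at 6.39 TPM in WT 2, against 10.5 to 11.8 TPM in the other WT libraries.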

How the results depend on the processing

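Each member was tested under 26 alternatives (normalization, filter, length offsets, non-robust fit, DESeq2, limma-voom, title prefix, 3 tissue levels, prefixes alone, each library left out, and the pair of additions below). Of the 20 called members 13 kept the call under all they entered, and none of the 25 changed direction. Between 13 and 24 members rose, against 19 as reported, while the share of all genes called ran from 2.59% (muscle level) to 38.5% (hair shaft level). Those 13 came with the prefix block and the muscle level together, which was chosen after seeing the data, as was leaving out WT 2 and KI 2. The 1 member that fell, Lce1m, lost its call, leaving 0, with no filter, under limma-voom, with the muscle level, with EAS37 alone and with prefix and muscle level, and the number was 0 to 1 with a library left out. Without the filter 1 member (Lce3c) had a different effect between prefixes, against 0. The log2 ratio of summed TPM, 1.85 for Sprr1, 2.53 for Sprr4 and 3.08 for Lce3, moved by more than the spread between replicates to 3.997 for Sprr1 and 6.10 for Sprr4 with EAS42 alone, and for Lce3 to 4.36 with EAS37 alone and 1.83 with EAS42 alone. The cause was not tested. No paired analysis was possible because the replicate numbers were given in accession order. Low counts limit what can be said of the 11 members below the filter.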

Other observations

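Other genes of the same stretch of chromosome 3 differed among themselves. The protein-coding gene 2310046K23Rik, which lies between Sprr4 and Lce6a, averaged 1192 TPM in KI and 124 TPM in WT (log2 fold change 3.36 ± 0.36, SE; edgeR adjusted p = 4.00e-04). Of the protein-coding genes that lie among the Lce genes, Kprp, Crct1 and 2310050C09Rik did not pass. Kprp lies between Lce1k and Lce1l (log2 fold change 0.42; edgeR adjusted p = 0.274), 2310050C09Rik between Lce1l and Lce3a (0.38; 0.364), and Crct1 between Lce3f and Lce1m (0.21; 0.483). Sprr2g, annotated as a polymorphic pseudogene and thus no member, had 148 counts in KI and 9 in WT (log2 fold change 4.06 ± 0.89, SE; edgeR adjusted p = 0.00772). Sprr2c-ps, a processed pseudogene, had 0 counts in both groups. These genes were picked for their position and named after their values were seen.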
